A study of Mus musculus with 8 samples.

Results

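The genes described here encode the nuclear subunits of oxidative phosphorylation. They were taken by symbol, as Ndufa, Ndufb, Ndufc, Ndufs and Ndufv with a number for complex I, Sdha to Sdhd for complex II, symbols that start with Uqcr for complex III, Cox4 to Cox8 genes for complex IV and symbols that start with Atp5 for complex V. Of 43346 genes in the count tables, 90 matched, and 7 of these were left out: 6 symbols marked as pseudogenes and Cox6c2, which the annotation lists as a processed pseudogene. The 83 genes that remained were 36 of complex I, 4 of complex II, 8 of complex III, 18 of complex IV and 17 of complex V. Some names do not follow current knowledge of the complexes: Ndufa4 is counted under complex I by its symbol but is a subunit of complex IV, Cox7a2l is known as a factor of respiratory supercomplexes, and Atp5s is related to a coupling factor of the ATP synthase rather than being a core subunit.

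Oxidative phosphorylation couples the oxidation of NADH and succinate to the synthesis of ATP at the inner mitochondrial membrane. Complexes I and II pass electrons to ubiquinone, complex III passes them to cytochrome c, and complex IV, cytochrome c oxidase, passes them to oxygen. Complexes I, III and IV pump protons, and complex V, the ATP synthase, uses the gradient. Most subunits are encoded in the nucleus, and several of those of complex IV have a widely used gene and a paralog that is best known from particular tissues or conditions, such as muscle, testis, lung or low oxygen. The nucleus pulposus, the core of the intervertebral disc, is formed from the notochord and is known as a tissue with few blood vessels and low oxygen.

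RNA was sequenced from notochord-derived cells of Shh-cre;ROSA:YFP mice, in which Cre is driven by Shh and cells with a history of Shh expression carry YFP, at embryonic day 12.5 (E12.5, litters NDP10.2, NPD3, NPD4 and NPD9.2) and at postnatal day 0 (P0, litters NPD26, NPD27, NPD28, NPD30). Each of the 8 samples was a pool of the embryos or pups of a single litter, so n = 4 litters per stage. All animals of both stages carried these alleles, and the labels name no treatment. The E12.5 samples were whole notochords dissected free of adjoining tissue, with no sort, whereas the P0 samples were cells of lumbar and thoracic discs that were dissociated and sorted for YFP, so stage and isolation cannot be told apart.

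Reads counted on genes numbered 4442775 to 7180221 per E12.5 litter and 6371842 to 8904050 per P0 litter. Levels are given in CPM, the counts of a gene scaled to the size of its library times a normalization factor per library (TMM), 0.919 to 1.158. Without this factor 3 counts equal 0.337 to 0.675 CPM. The subunit genes together held 0.401% to 0.703% of the counts on genes. Of 12 notochord and nucleus pulposus markers, 11 were tested, of which 4 rose (Krt19, Cd24a, Car3 and Acan) and 2 fell at P0, Shh and Foxa1. In the 8 fits that left out a litter, Acan was called in 3, Krt19 in 4, Cd24a in 6, and Car3, Shh and Foxa1 in all 8. Shh, whose promoter drives Cre, was at 420 to 1348 CPM at E12.5 and 0.157 to 11.8 CPM at P0. T (brachyury) was present in all litters, at 242 to 942 CPM at E12.5 and 574 to 2323 CPM at P0, while Noto, another notochord gene, was at 0 to 0.433 CPM. Markers of other cell types were also present. Summed skeletal muscle markers (12 genes) were at 625 to 2738 CPM at E12.5 and 55.3 to 209 CPM at P0, and summed erythroid markers (10 genes) at 10265 to 49926 CPM and 439 to 1364 CPM. Summed leukocyte markers (14 genes) were at 71.4 to 152 CPM at E12.5 and 469 to 4948 CPM at P0. The sclerotome sum (7 genes, all 7 called lower) was at 122 to 200 CPM at E12.5 and 5.06 to 16.3 CPM at P0, and the osteoblast sum (5 genes, 3 of 4 tested called higher) at 27.6 to 83.7 CPM and 304 to 640 CPM. The part of these cell types in the differences between stages was not tested. Several litters stood apart: NPD28 had a neutrophil marker sum (8 genes) of 6678 CPM against 764 to 973 CPM in the other P0 litters, NPD30 had the P0 leukocyte sum of 469 CPM against 3595 to 4948 CPM, NPD4 had a neural marker sum (6 genes) of 2033 CPM against 101 to 142 CPM in the other E12.5 litters, and NDP10.2 and NPD9.2 had 16.3% and 17.5% of reads ambiguous between genes against 7.07% to 11.6% in the other litters. For the subunit genes and the other genes of the pathway, calls that were lost without 1 of these litters are given beside the result.

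Of the 83 genes, 66 had a promoter window in the RefSeq tables (GRCm38.p6), reaching from 250 bases before to 50 bases after a transcript start. A set of 3 short motifs known from promoters of mitochondrial genes was searched on both strands. These were GCGCATG, part of the motif of NRF1, CCGGAAG, the core of ETS family sites such as that of GABP, and AAGATGG, part of the motif of YY1. GCGCATG was held by 13 of the 66 genes (19.7%) against 4.41% of the 27025 genes in the table, CCGGAAG by 16 (24.2%) against 9.93%, and AAGATGG by 10 (15.2%) against 7.28%. Any of the motifs was held by 31 (47.0%) against 19.5%. The 27025 genes are all those with a window, whether or not they have counts here. Promoters of other widely expressed genes were not compared, so these shares do not show that the motifs are particular to the subunit genes. The end of CCGGAAG and the start of AAGATGG share letters, as do GCGCATG and its own reverse complement, so a stretch can match more than once. A match describes the letters and not a bound site. The windows of the genes that were lower at P0, Cox7c and Atp5e, and of the most abundant member per kilobase whose window holds GCGCATG, Cox6a1, are shown in the direction of transcription with motif letters, on either strand, in capitals. Cox7c is at chr13:86046746-86047045 on the minus strand, Atp5e at chr2:174464052-174464351 on the minus strand and Cox6a1 at chr5:115348909-115349208 on the minus strand.
Cox7c: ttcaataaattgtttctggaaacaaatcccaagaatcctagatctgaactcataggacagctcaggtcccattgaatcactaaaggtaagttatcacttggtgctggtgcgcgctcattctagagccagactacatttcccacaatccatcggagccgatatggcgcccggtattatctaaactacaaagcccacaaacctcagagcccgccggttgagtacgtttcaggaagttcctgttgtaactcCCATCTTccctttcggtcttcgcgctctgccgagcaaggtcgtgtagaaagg
Atp5e: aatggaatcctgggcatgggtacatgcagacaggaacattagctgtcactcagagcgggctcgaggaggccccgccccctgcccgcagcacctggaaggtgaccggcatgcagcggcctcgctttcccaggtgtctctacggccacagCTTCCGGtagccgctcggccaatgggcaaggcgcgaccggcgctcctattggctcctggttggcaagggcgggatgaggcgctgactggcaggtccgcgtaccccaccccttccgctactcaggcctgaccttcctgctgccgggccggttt
Cox6a1: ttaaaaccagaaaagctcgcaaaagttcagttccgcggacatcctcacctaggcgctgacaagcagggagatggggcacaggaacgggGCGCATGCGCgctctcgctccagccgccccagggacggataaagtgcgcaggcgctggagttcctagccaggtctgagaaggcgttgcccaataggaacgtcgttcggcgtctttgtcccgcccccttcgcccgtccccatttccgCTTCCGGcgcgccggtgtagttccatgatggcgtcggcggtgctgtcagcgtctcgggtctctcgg
Cox7c and Atp5e each held 1 match, to AAGATGG and CCGGAAG respectively, and Cox6a1 held 3, with GCGCATG on both strands of an overlapping stretch. Genes for which no window was at hand include Ndufa2, Ndufb9, Ndufs1, Sdhc, Uqcrb, Uqcrc2, Uqcrq, Cox4i1, Cox4i2, Cox6a2, Cox6c, Cox8c, Atp5a1, Atp5f1, Atp5mpl and Atp5s.

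Cox4i2, a paralog of the complex IV subunit Cox4i1, was 13.7-fold higher at P0 than at E12.5, while most nuclear subunit genes did not pass the threshold. Cox7c and Atp5e were lower at P0. With edgeR, 1 of the 78 genes tested rose and 2 fell at an adjusted p under 0.05, which is 3.85% of them. Over all 15467 genes tested, the same rule called 27.9%, with 16.0% higher and 12.0% lower at P0. The median log2 fold change, P0 over E12.5, was -0.14 over the 78 genes and 0.04 over all genes tested, and 62 of the 78 lay within 0.5 of 0 on the log2 scale. The 95% confidence interval of the log2 fold change lay inside -1 to 1 for 51 of the 78 genes, against 26.3% of all genes tested, and for the rest it reached past -1 or 1. At an unadjusted p under 0.05 the count was 9 of 78 genes, against 39.7% of all. DESeq2's Wald test called 1 higher and 4 lower, adding Ndufa3 and Cox6a2, against 33.1% of all genes. Without NPD9.2, NPD27 or NPD28, and without NDP10.2 and NPD9.2 together, edgeR called Cox4i2 higher and 0 genes lower. In bulk samples, fewer cells of a type and less RNA per cell cannot be told apart.

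**Figure D1:**
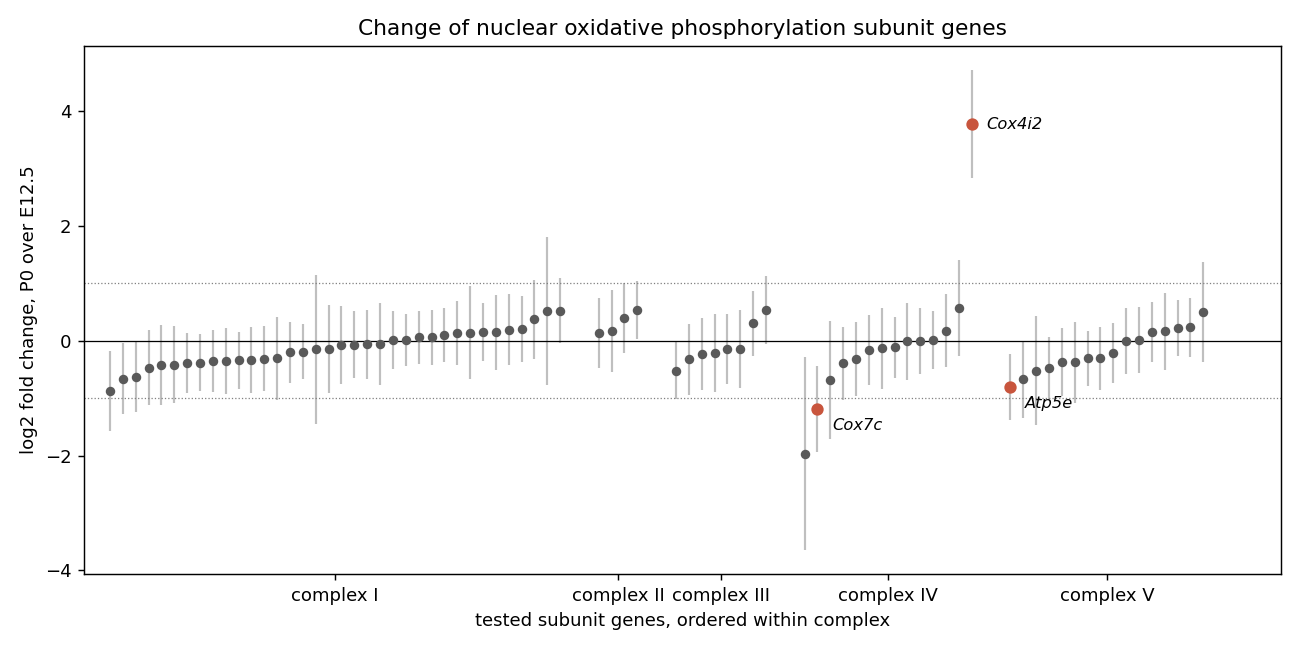
Log2 fold change, P0 over E12.5, of the 78 tested genes (points) with 95% confidence intervals (lines), ordered by value within each complex, with n = 4 litters per stage and dotted lines at -1 and 1. The 3 genes in red passed an adjusted p under 0.05: Cox4i2 at 3.78, Cox7c at -1.19 and Atp5e at -0.80.

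None of the 36 complex I genes passed the threshold, and their median log2 fold change was -0.11, with 14 above and 22 below 0. Complex I, NADH dehydrogenase, joins subunits that carry out catalysis with a larger number of accessory subunits around them. The 7 accessory genes of the NADH-binding arm, Ndufv3, Ndufs4, Ndufs6, Ndufa2, Ndufa6, Ndufa7 and Ndufa12, had log2 fold changes of -0.63 to -0.06, with all 7 below 0, or 6 of 7 without NPD4 and 6 of 7 without NPD28. Upper quartile normalization moved the median of all genes tested from 0.04 to -0.11, so log2 fold changes nearer to 0 than this shift have no fixed sign. The median of these 7 genes was -0.34.

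Ndufa3, an accessory subunit, had the lowest log2 fold change of complex I. With the litters in the order given above, which is kept throughout, its abundance was 51.0, 23.0, 25.0 and 34.7 CPM at E12.5 and 24.8, 19.5, 14.5 and 13.9 CPM at P0. NPD26 overlapped the E12.5 litters, and the other P0 litters lay below them. Its log2 fold change was -0.88 ± 0.32 (SE), with an edgeR adjusted p of 0.062, while DESeq2 gave 0.0396. Ndufa3 passed the threshold in 4 of the 11 other alternatives and in 2 of the 8 fits without a litter. The highest was Ndufb10, an accessory subunit of the membrane arm, at 37.0, 25.4, 29.6 and 19.9 CPM at E12.5 and 46.4, 47.4, 30.0 and 37.5 CPM at P0. The stages overlapped, and the log2 fold change was 0.53 ± 0.26 (SE, edgeR adjusted p = 0.157). Ndufb2 and Ndufb5, chosen after their values were seen, were the only complex I genes whose litters did not overlap between stages. Ndufb2 was at 15.2 to 20.5 CPM at E12.5 and 8.36 to 14.0 CPM at P0, and Ndufb5 at 73.8 to 77.6 CPM and 40.6 to 70.5 CPM, with adjusted p-values of 0.105 and 0.287. Among the 78 genes, 6 did not overlap between stages, 1 of them higher and 5 lower at P0, against 29.9% of all genes tested, 15.5% higher and 14.4% lower.

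The 4 complex II genes had positive log2 fold changes, from 0.14 to 0.53, and none passed the threshold. With upper quartile normalization 3 of 4 were positive, as were 3 of 4 without NDP10.2 and NPD9.2 and 2 of 4 without NPD26, where their median was 0.10 against 0.29. Complex II, succinate dehydrogenase, is shared with the citric acid cycle and is encoded entirely in the nucleus. Sdha, the flavoprotein that oxidizes succinate, was at 61.1, 98.2, 93.8 and 82.4 CPM at E12.5 and 131, 143, 118 and 94.9 CPM at P0. Only NPD30 fell within the E12.5 range. For Sdha the log2 fold change was 0.53 ± 0.23 (SE, edgeR adjusted p = 0.111). Sdhc, a membrane anchor, had the lowest value, with 105, 71.4, 89.8 and 92.9 CPM at E12.5 and 134, 124, 72.7 and 64.1 CPM at P0. The P0 litters lay on both sides of the E12.5 litters, and the log2 fold change was 0.14 ± 0.28 (SE, edgeR adjusted p = 0.759). Sdhb, the iron-sulfur subunit, and Sdhd, the other anchor, had log2 fold changes of 0.17 and 0.40.

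In complex III, 0 of 8 genes passed the threshold. The Rieske iron-sulfur protein Uqcrfs1 and the core proteins Uqcrc1 and Uqcrc2 had log2 fold changes of -0.14 to 0.53. Of these, 2 of 3 were above 0, with a median of 0.30. Their median was 0.10 with length and GC offsets and 0.004 without NDP10.2 and NPD9.2. The 5 small subunits Uqcr10, Uqcr11, Uqcrb, Uqcrh and Uqcrq had a median of -0.23, with all 5 below 0. It was 4 of 5 with length and GC offsets, without NPD28, and without NDP10.2 and NPD9.2, where the median of the small subunits was -0.05. Uqcrc1 had the highest value, with 90.6, 53.1, 59.6 and 100 CPM at E12.5 and 125, 128, 104 and 80.4 CPM at P0. Its log2 fold change was 0.53 ± 0.27 (SE, edgeR adjusted p = 0.171), with NPD30 inside the E12.5 range. Uqcrh, the hinge protein that binds cytochrome c1, had the lowest value. Its abundance was 137, 113, 119 and 127 CPM at E12.5 and 112, 89.3, 62.9 and 81.0 CPM at P0, with every P0 litter below every E12.5 litter. This gave a log2 fold change of -0.52 ± 0.23 (SE), with an edgeR adjusted p of 0.112.

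Complex IV held the largest difference of all members. Cox4i2 (ENSMUSG00000009876.9, GRCm38 chr2:152754173-152765037, plus strand) encodes a variant of the regulatory subunit 4 that is known from lung and is raised by low oxygen in cultured cells. The E12.5 litters had 7.08, 5.07, 4.59 and 7.13 CPM of Cox4i2, and the P0 litters had 80.2, 37.6, 59.8 and 148 CPM. Every P0 litter lay above every E12.5 litter, and NPD30 was the highest. The means were 5.97 ± 1.33 and 81.3 ± 47.5 CPM (SD, n = 4). The log2 fold change was 3.78 ± 0.43 (SE), with an edgeR adjusted p of 0.000277. It was 3.29 without NPD30 and 3.91 without NPD28, and passed the threshold in each of the 8 fits that left out a litter and in all 11 other alternatives. NPD30 was also the P0 litter with the highest sum of notochord and nucleus pulposus markers, 39090 CPM against 9789 to 18549 CPM in the others, and the P0 litter with the lowest leukocyte sum. All 14 leukocyte and all 7 neutrophil markers tested rose from E12.5 to P0, and their part in the level of Cox4i2 was not tested.

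The stages overlapped for the widely used paralog. Cox4i1 (GRCm38 chr8:120668222-120674207, plus strand) was at 274, 185, 230.2 and 268 CPM at E12.5 and 389.7, 303, 177 and 212 CPM at P0. Its log2 fold change was 0.18 ± 0.29 (SE, edgeR adjusted p = 0.688, 95% confidence interval -0.45 to 0.81). Cox4i2 made up 2.52%, 2.67%, 1.96% and 2.59% of the counts of both genes at E12.5, whereas at P0 it made up 17.1%, 11.0%, 25.2% and 41.0%. The P0 shares all exceeded the E12.5 shares, and they ranged widely among P0 litters. The mean share was 2.43% ± 0.324 at E12.5 and 23.6% ± 13.0 at P0 (SD, n = 4), and a two-sided exact permutation test gave p = 0.0286, the smallest that 4 litters against 4 allow, or 0.114 after adjustment over 8 paralog shares. Per kilobase of merged exons, Cox4i2 stood at 7.57 and 103 CPM at the earlier and the later stage, and Cox4i1 at 154 and 175 CPM.

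Another paralog of complex IV outside the symbol rule showed the same direction. Ndufa4l2, related to Ndufa4 and known as a gene raised by low oxygen, was at 27.4, 10.7, 6.89 and 9.10 CPM at E12.5 and 277, 214, 270.0 and 789 CPM at P0. All P0 litters lay above all E12.5 litters, and NPD30 was again the highest. Ndufa4l2 had a log2 fold change of 4.85 ± 0.61 (SE, edgeR adjusted p = 0.000492). Ndufa4 was at 93.4, 82.9, 114 and 105 CPM at E12.5 and 115, 87.2, 47.2 and 45.5 CPM at P0, with overlapping stages and a log2 fold change of -0.42 ± 0.31 (SE, edgeR adjusted p = 0.351). The share of Ndufa4l2 in the counts of both was 12.0% ± 7.51 at E12.5 and 80.3% ± 11.6 at P0 (SD, n = 4). Ndufa4 was chosen for display after its values were seen.

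**Figure D2:**
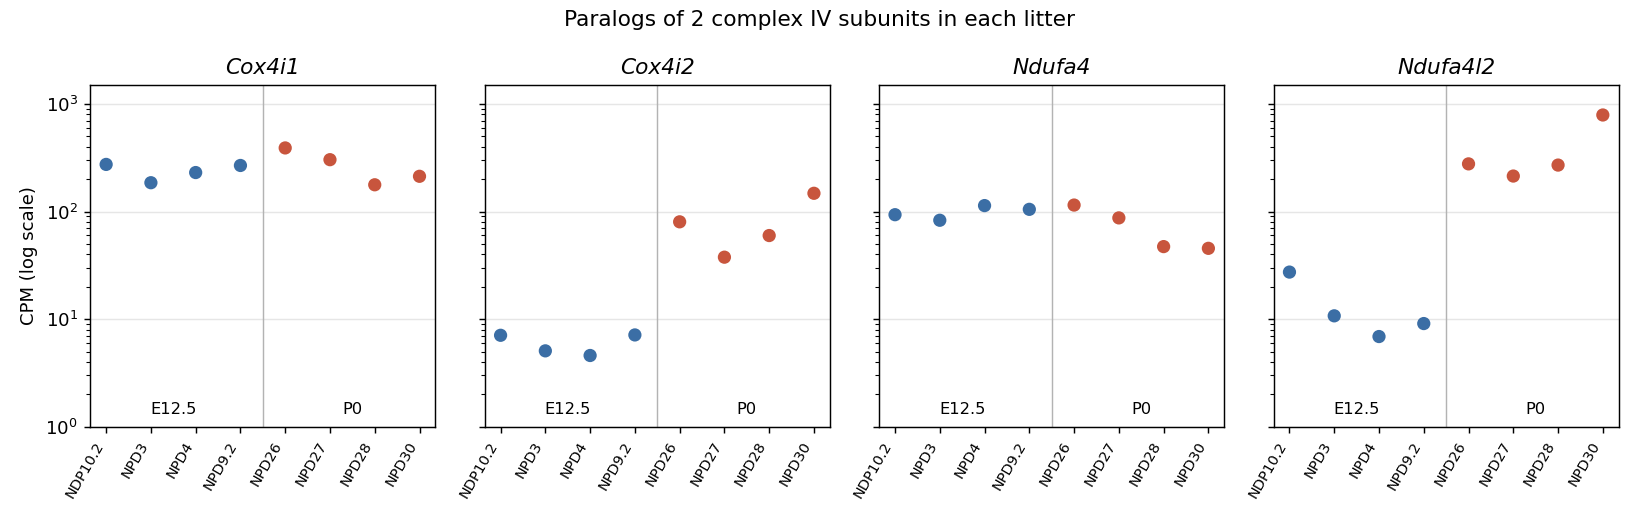
CPM on a log scale of Cox4i1, Cox4i2, Ndufa4 and Ndufa4l2 in each litter (points), with the 4 E12.5 litters in blue and the 4 P0 litters in red. The P0 points of Cox4i2 and Ndufa4l2 all lie above their E12.5 points, reaching 148 and 789 CPM in NPD30, while Cox4i1 and Ndufa4 overlapped between stages.

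The other complex IV paralogs were low. Cox8b, the muscle and brown fat form of subunit 8, had 0, 0, 1 and 0 counts at E12.5 and 25, 10, 4 and 14 counts at P0, too few to pass the filter. Set against the library sizes, this is a ratio of 40.5 with a 95% interval of 6.97 to 1630.4 that covers counting error only. Without the filter, edgeR gave an adjusted p of 0.00514. Its share of the counts of Cox8a, Cox8b and Cox8c was 0.022% at E12.5 and 1.72% at P0. A share was tested where its gene averaged at least 1 CPM in either stage. Cox8b met this only at P0, where it was high, so the permutation test of its share cannot decide on a difference. Of the brown fat markers, Ucp1 was at 0 to 1.97 CPM at E12.5 and 0.144 to 0.471 CPM at P0. Cidea was at 0 to 1.48 and 0 to 1.52 CPM, and Dio2 at 0.236 to 5.27 and 0 to 1.57 CPM. Of the skeletal muscle markers under the filter, Ckm was at 0 to 0.195 and 0.589 to 1.26 CPM, and Tnnc2 at 0 and 0 to 0.577 CPM. The part of these cell types in the level of Cox8b was not tested. Cox6a2, the muscle form of subunit 6a, was at 6.37, 2.54, 1.21 and 7.38 CPM at E12.5 and 2.52, 0.873, 0.706 and 0.303 CPM at P0. The litters NDP10.2 and NPD9.2, with the highest values, also had the highest skeletal muscle sums at E12.5, 1859 and 2738 CPM against 1432 CPM in NPD3 and 625 CPM in NPD4. Across the marker list, 7 of the 10 skeletal muscle genes tested fell and 0 rose, and the part of muscle RNA in the values of Cox6a2 was not tested. Cox6a2 had a log2 fold change of -1.97 ± 0.77 (SE, edgeR adjusted p = 0.0787), and DESeq2 gave an adjusted p of 0.0337. Cox6b2, known from testis, had a log2 fold change of -0.69 (edgeR adjusted p = 0.304) and made up 9.87% and 8.63% of the Cox6b counts. Cox7a1 had 17 counts at E12.5 and 33 at P0, all 8 counts of Cox7b2 at E12.5 came from NDP10.2 and all 4 at P0 from NPD26, and Cox8c had 0 counts in every litter.

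Cox7c, a small subunit of complex IV, was lower at P0. It was at 7.78, 11.5, 9.79 and 14.5 CPM at E12.5 and 4.87, 4.90, 4.00 and 5.31 CPM at P0, with all P0 litters below all E12.5 litters. The log2 fold change was -1.19 ± 0.34 (SE, edgeR adjusted p = 0.0231). The call held in 3 of the 8 fits that left out a litter (NDP10.2, NPD4 or NPD30) and was lost without any of the others, with adjusted p from 0.0187 to 0.0650 and log2 fold changes from -1.36 to -1.06. Cox7c had 31 to 81 counts per litter, and 19.7% of its 100-base windows also occur in the transcripts of Gm10012 or Gm12338, and reads that align to more than 1 place were not counted. Its highest litter, NPD9.2, had the highest skeletal muscle and erythroid sums. NDP10.2, next in both sums at 1859 and 25123 CPM, had the lowest E12.5 value of Cox7c. The part of these sums in the values was not tested. The remaining widely used subunits Cox5a, Cox5b, Cox6a1, Cox6b1, Cox6c, Cox7a2, Cox7b and Cox8a had log2 fold changes of -0.39 to 0.57 and overlapped between stages. The highest of these was Cox5a, at 18.2 to 61.5 CPM at P0 and 19.8 to 35.2 CPM at E12.5.

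The ATP synthase had 1 call among the 16 genes tested, Atp5e. Complex V consists of a catalytic head, a rotor with a ring of c subunits, and a peripheral stalk. Atp5e, the epsilon subunit of the central stalk, was at 124, 103, 113 and 148 CPM at E12.5 and 98.1, 73.0, 44.7 and 63.4 CPM at P0. All P0 litters lay below all E12.5 litters. The log2 fold change was -0.80 ± 0.26 (SE, edgeR adjusted p = 0.0426), and 1 of the 8 fits without a litter, that without NPD26, kept the call, with adjusted p from 0.0207 to 0.101. The E12.5 litters with the highest values, NPD9.2 and NDP10.2, also had the highest muscle and erythroid sums, whose part in the difference was not tested. The other genes of the head did not pass the threshold. Atp5a1, Atp5b and Atp5c1, the alpha, beta and gamma subunits, had log2 fold changes of 0.16, 0.22 and 0.24, and Atp5d, the delta subunit, -0.31. The catalytic beta subunit Atp5b was at 362 to 444 CPM at E12.5 and 431 to 527 CPM at P0. The stages overlapped for all of these.

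The c subunit is encoded by Atp5g1, Atp5g2 and Atp5g3, which give the same mature protein. Atp5g3 held 87.9% ± 2.96 of their counts at E12.5 and 86.9% ± 2.16 at P0, and Atp5g2 1.88% ± 0.452 and 1.31% ± 0.318 (SD, n = 4). The share of Atp5g1 ranged from 6.25% to 12.8% at E12.5 and from 9.0% to 13.9% at P0. None of these shares passed a p of 0.05, and two-sided exact permutation tests gave p = 0.600 for Atp5g3, 0.400 for Atp5g1 and 0.114 for Atp5g2. The 4 peripheral stalk genes Atp5f1, Atp5h, Atp5j and Atp5o had log2 fold changes of -0.38 to 0.00. The highest value of complex V was that of Atp5s, at 4.88 to 6.89 CPM at E12.5 and 5.05 to 13.3 CPM at P0. Its log2 fold change was 0.50 ± 0.40 (SE, edgeR adjusted p = 0.387). Atp5l had 37 counts at E12.5 and 32 at P0 and was not tested. Reads that align to more than 1 place were not counted, so these counts do not show that Atp5l is little expressed.

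Summed over the 83 genes, the level was 5788, 4894, 5966 and 5727 CPM at E12.5, whereas the P0 litters had 7042, 6080.2, 4204 and 4756 CPM. The means were 5594 ± 477 and 5520.5 ± 1284 CPM (SD, n = 4), so that the stages differed by less than the spread between litters and P0 litters varied more. The same held in each complex. Complex I summed to 1713 ± 151 at E12.5 and 1562 ± 379 CPM at P0, complex II to 332 ± 52.7 and 413 ± 116 CPM, complex III to 579 ± 43.3 and 574 ± 133 CPM, complex IV to 986 ± 154 and 1014 ± 291 CPM, and complex V to 1984 ± 152 and 1957 ± 384 CPM.

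**Figure D3:**
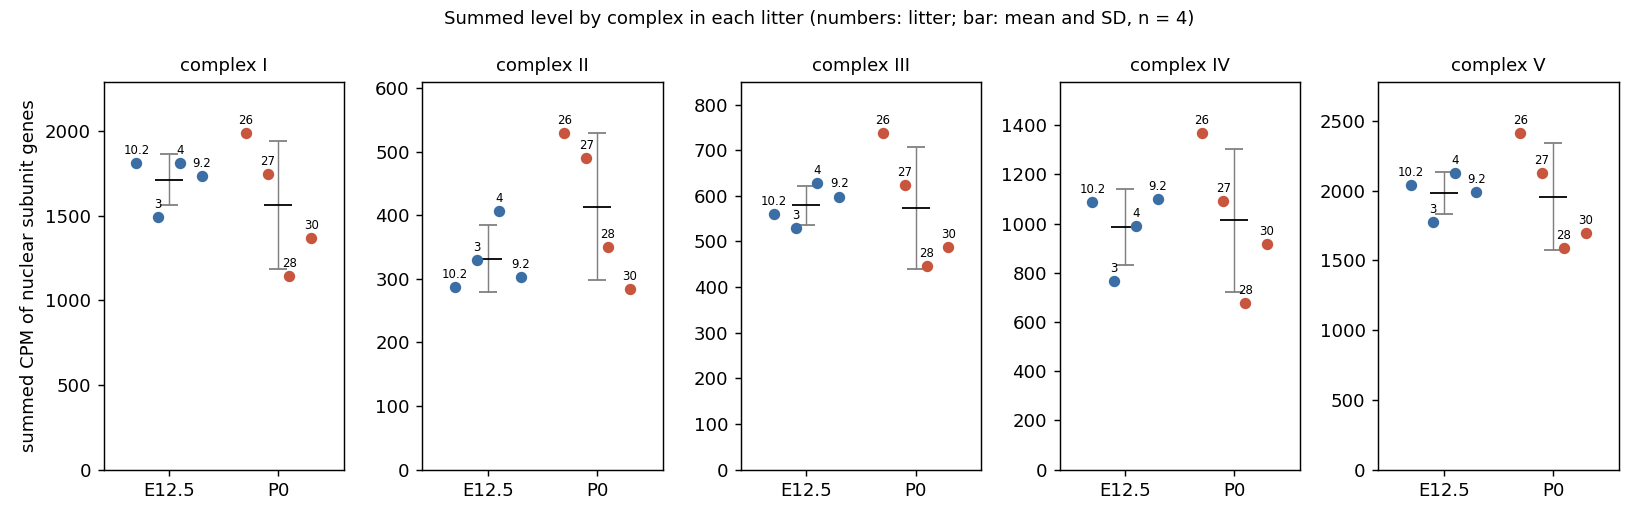
Summed CPM of the nuclear subunit genes of each complex in each litter (points labelled with the number of the litter's name), with the mean and SD of the 4 litters of a stage. For complexes I, III, IV and V the P0 litter NPD26 was the highest and NPD28 the lowest of all 8 litters, so the P0 spread encloses the E12.5 litters.

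Within P0 the genes varied together. NPD28 was the lowest of all 8 litters for 44 of the 78 genes tested and the lowest P0 litter for 55, and NPD26 was the highest P0 litter for 53. The median deviation of the genes from their own mean over the 8 litters, in log2 CPM, was 0.36 in NPD26, 0.15 in NPD27, -0.47 in NPD28 and -0.26 in NPD30, against -0.11 to 0.17 in the E12.5 litters. NPD28 also had the neutrophil sum of 6678 CPM, and its part in these levels was not tested. Without NPD28 the median log2 fold change of the 78 genes was 0.04, against -0.14 with it, and that of complex I was 0.07 against -0.11. Complex II stood apart within E12.5, with median deviations of -0.47 in NDP10.2 and -0.25 in NPD9.2, in which those of complexes I, III, IV and V were 0.02 to 0.26. These are the litters with the highest shares of ambiguous reads and the highest muscle and erythroid sums, and their part in this was not tested.

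**Figure D4:**
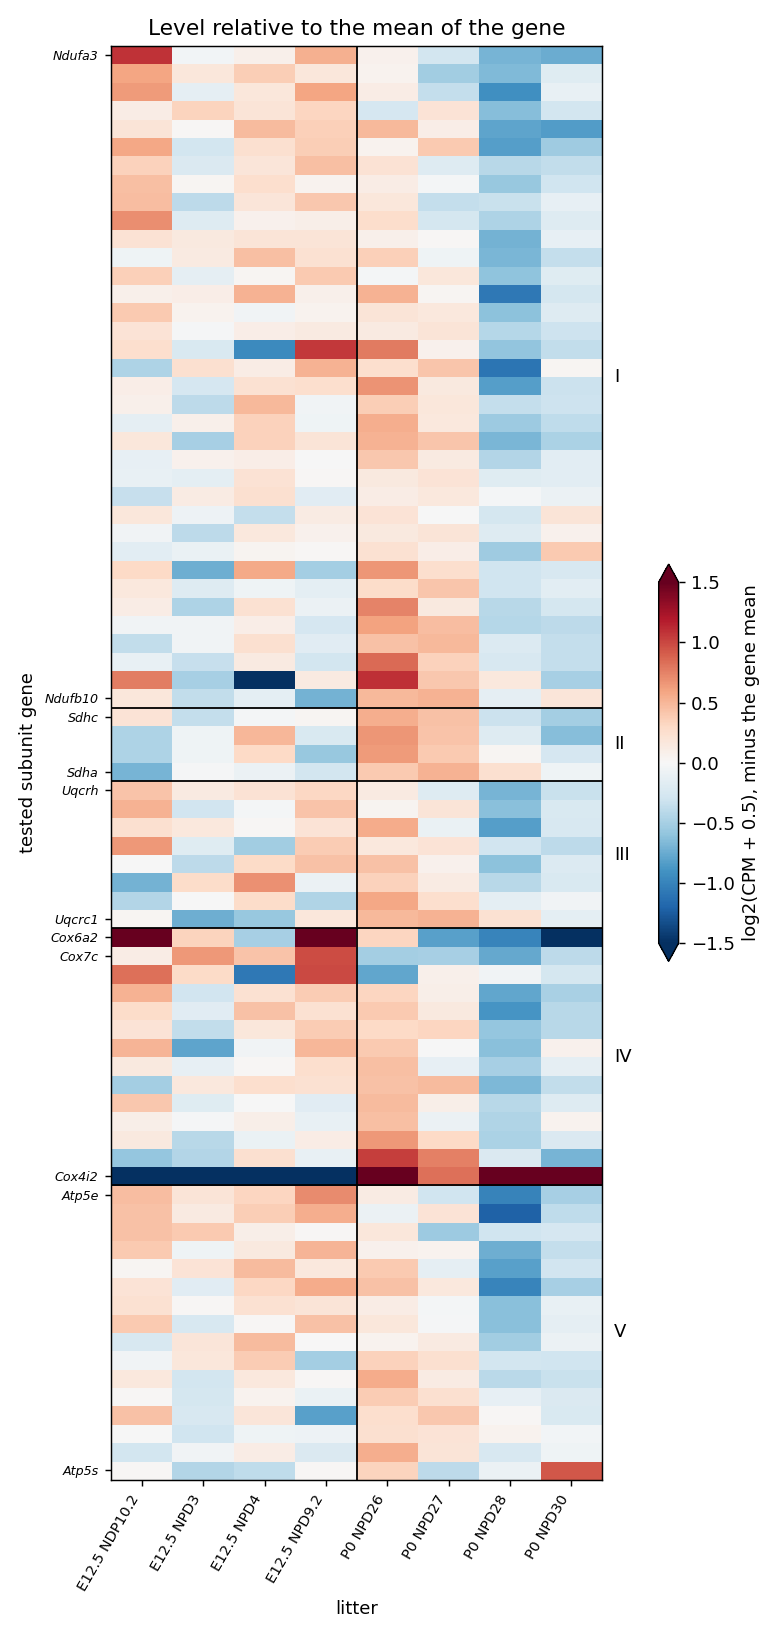
Level of each of the 78 tested genes in each litter as log2(CPM + 0.5) minus the mean of the gene over the 8 litters, with genes grouped by complex and ordered by log2 fold change, and with names for the called genes and for the lowest and highest of each complex. The column of NPD28 is mostly blue (lowest of 8 litters for 44 genes) and that of NPD26 mostly red (highest P0 litter for 53), and the row of Cox4i2 splits at the line between stages.

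Per kilobase of merged exons, the most abundant members over all 8 litters were Cox8a at 198 CPM, Cox4i1 at 164 CPM, Cox6a1 at 161 CPM, Atp5a1 at 131 CPM and Cox6b1 at 129 CPM. Atp5a1 encodes the alpha subunit of the ATP synthase head and the others subunits of complex IV. Over the 8 litters their SDs were 58.0, 45.2, 40.2, 21.0 and 36.0 CPM, and each gene differed from the next in this order by less than the larger of the SDs of both. Cox8c was listed at 0, and Atp5l stood at 0.236 CPM, the lowest of the genes with counts. The value of Atp5l was divided by 6443 merged exon bases. Windows of its transcript also occur in Atp5l-ps1, Atp5l2-ps, Gm10221, Gm4045 and Gm4853, and reads with several alignments were not counted. The part of these in its low value was not tested. The genes were short, with a median of 1578 merged exon bases against 4299.5 for all genes tested. Across the 78 genes, which are not independent, Spearman's rho of the log2 fold change with merged exon length was 0.25. Some members share sequence with other genes. Of the 83 genes, 26 had at least 1 window of 100 bases that also occurs in the transcript of another gene, at most 33.4% of windows (Ndufb4). The exons of 28 overlapped another gene record, at most 47.9% of bases (Atp5o). The records that overlap Atp5o are a second one with the symbol Atp5o, D430001F17Rik and Gm15976. These shares cover exact matches and overlapping records only, and they do not bound the error in the levels. A strand setting for counting was not given in the sources used here.

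In each list of other genes of the pathway 0 or 1 gene passed the threshold. Over all genes tested 27.9% passed, 16.0% higher and 12.0% lower at P0. For the shorter lists such a count does not set the list apart from that share. Of the 15 complex I assembly factors tested, 1 fell, Ndufaf2, with a log2 fold change of -1.06 (edgeR adjusted p = 0.0428). Of 6 complex III factors, 1 fell, Uqcc2, which is needed for cytochrome b, with -0.85 (edgeR adjusted p = 0.0424). Of 20 complex IV factors, 1 rose, Coa5, with 0.69 (edgeR adjusted p = 0.0477). These 3 calls were each kept in 2 or fewer of the 8 fits without a litter. None of the 4 complex II factors Sdhaf1, Sdhaf2, Sdhaf3 and Sdhaf4, the 3 complex V factors Atpaf1, Atpaf2 and Tmem70, or the 15 nuclear regulators, which include Nrf1, Gabpa, Yy1, Ppargc1a and Tfam, passed. Of the 5 subunits outside the symbol rule that were tested, Ndufa4l2 rose and Ndufab1, Cyc1, Cycs and Usmg5 did not pass.

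Of the 13 subunits encoded in mitochondrial DNA, 7 had counts. These were mt-Nd1, mt-Nd2, mt-Nd4, mt-Nd5, mt-Nd6, mt-Cytb and mt-Co1. Of these, 0 of 7 passed the threshold, against 27.9% of all genes tested, and their median log2 fold change was -0.39. The other 6 were listed at 0 in every litter, while mt-Co1 was at 5607 to 10694 CPM. Reads that align to more than 1 place were not counted, and their part in these 0 values was not tested. A listed 0 therefore does not show that these 6 are absent from the cells. The sum over the 7 with counts was 23038 to 37785 CPM at E12.5 and 13611 to 28483 CPM at P0, lowest in NPD28, as for the nuclear genes. Of 16 genes of mitochondrial mass and import, Vdac1, the pore of the outer membrane, was the only call, against 27.9% of all genes tested. It was at 116, 120.4, 132 and 112 CPM at E12.5 and 305, 237, 196 and 313 CPM at P0, with no overlap. The log2 fold change was 1.13 ± 0.23 (SE, edgeR adjusted p = 0.00421), and it passed in all 8 fits without a litter and in 10 of 11 other alternatives, with an adjusted p of 0.0653 without NDP10.2 and NPD9.2. The medians of these lists ran from -0.60 for the complex V factors to 0.20 for the complex II factors, against 0.04 over all genes tested.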

How the data were processed

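The libraries were made with the TotalScript kit, and per the labels and the methods of the study the authors aligned reads with STAR 2.4.0j to GRCm38 and used htseq-count for the counts over genes of Gencode M4. The deposited values are raw counts per gene and litter, with no normalization. The submitters' processing notes also name mm9, with no role given. Rows without a gene (22.7% to 29.5% of reads with no feature, 7.07% to 17.5% ambiguous, 26.3% to 33.7% with several alignments) were left out. Symbols, positions and exon lengths came from Gencode M21, in which 42462 of 43346 identifiers had a symbol.

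Stages were compared with edgeR 4.0.16 in R 4.3.3 (TMM, filterByExpr with a minimum count of 10 and total of 15, robust quasi-likelihood F-test, Benjamini-Hochberg adjustment over 15467 genes, calls at an adjusted p under 0.05). SE is the size of the log2 fold change divided by the square root of F. CPM use TMM library sizes, and log2 CPM a prior count of 2. DESeq2 1.42.0 and limma 3.58.1 gave alternatives. Paralog shares were compared by exact permutation with scipy 1.17.1. The fits were tested on simulated data.

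The genes, lists and tests were chosen with earlier results of these data known. Named genes are those called, the highest and lowest of each complex, all paralogs, the 5 most abundant per kilobase, and called genes of the pathway lists or all genes of lists of 5 or fewer. Others named were chosen after their values were seen. A group of member genes is not reported here. All 4 litters of a stage were separate pools, and intervals on counts cover counting error only.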

Additional observations from a re-analysis of the deposited data

Results flagged for a closer look

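Among 78 groups of 4 litters looked at, 5 held a litter whose gap to the nearest other exceeded Dixon's 95% critical value, and chance gives about 1 in 20. Cox7b was low in the E12.5 litter NDP10.2, with a log2 CPM of 5.15 against 5.82 to 5.92 in the other E12.5 litters. Cox7b2 was seen in a single litter of each stage, with a log2 CPM of 1.14 in NDP10.2 and -0.076 in NPD26 against -1.65 for no counts. Cox8b had a log2 CPM of -1.18 in NPD4 from 1 count, which gives a share of the Cox8 counts of 0.0879%. The Cox8b flags for level and share thus rest on the same count. For Cox7b2 and Cox8b the other litters of the group had no counts, so any count there is flagged. The rate of 1 in 20 does not apply to these flags.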

How the results depend on the processing

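The call of Cox4i2 held in every alternative run, with log2 fold changes of 3.29 to 4.04. The number of members called higher at P0 was 1, or 2 with no filter on low counts, which adds Cox8b, and 1 to 1 when each litter was left out. The number called lower was 2, and it ran from 0 to 4 over the 11 other alternatives, in 4 of which Ndufa3 was called. It was 4 with DESeq2, 4 with length and GC offsets (adding Ndufa3 and Uqcrh), 1 with no filter and 0 without NDP10.2 and NPD9.2. When each litter was left out it was 0 to 3 (0 without NPD9.2, NPD27 or NPD28 and 1 without NDP10.2, NPD3 or NPD30). The cause was not tested. Upper quartile normalization moved the median log2 fold change of all genes from 0.04 to -0.11 and that of the members from -0.14 to -0.26, which is -0.15 relative to all genes against -0.17. The median of the members ran from -0.28 to 0.04 over the fits without a litter, and was above 0 only without NPD28. Of 417 values of named members under alternatives, 392 kept their side of the threshold, most of them of genes not called in the main fit. Cox7c changed side in 5 of the 8 fits without a litter and 2 of the 11 other alternatives, and Atp5e in 7 and 1. The other changes were those of Ndufa3, Cox6a2 and Uqcrh. No paired analysis was possible because the labels give each litter its own number and no number is shared between stages. Among the genes under the filter, Cox7a1, Cox7b2 and Atp5l had edgeR adjusted p-values of 0.803, 0.563 and 0.559 without it, and Cox8c had no counts.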
